A study of Mus musculus with 12 samples.

Results

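The Rhox genes are a cluster of reproductive homeobox genes on the mouse X chromosome. They encode homeodomain transcription factors that are known for their expression in testis, epididymis, ovary and placenta. Rhox5, the founding member, was first described as Pem in placenta and embryos, and DNA methylation is known to silence it in embryonic tissues. Rhox6 was first described as the placental gene Psx1, and Rhox4 as Ehox, a homeobox gene of differentiating ES cells. Every gene probe of the array whose name or description gave a Rhox gene, or an older name of one, was taken. This found 3 of 20280 probes, for 3 of 7140 named genes, with 1 probe each for Rhox5 (A_65_P08397, named Pem), Rhox6 (A_65_P16318, named Psx1) and Rhox4b (A_65_P14864, named Ehox). The gene table used for names lists 42 Rhox entries, of which 33 are protein coding, so 3 genes of the family were measured here. Of these, Rhox5 was selected on its measured differences from the wild-type line in both Rex1-/- lines, and Rhox6 and Rhox4b were added as genes of the same family. Whether the values of Rhox6 were in view when it was added is not recorded. No probe was found by name for Rhox9 (Psx2). A probe named Prx was left out because its description is periaxin, although Prx is also an old name of a Rhox gene. The Rhox4 genes are near-identical copies, so which copy the Ehox probe reads is uncertain.

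The values came from 12 two-colour microarrays of undifferentiated mouse embryonic stem (ES) cells, with 3 arrays for each of 4 lines. EB5 was the wild-type line. RKPG9 was a Rex1+/- clone, in which the start of the Rex1 (Zfp42) open reading frame was replaced by a puromycin-resistance and EGFP fusion cassette (pacEGFP). HP3 and HP4 were Rex1-/- clones. The study obtained such clones from RKPG9 with puromycin at a high dose and from Rex1+/- cells with another vector that gave hygromycin resistance, and which route gave HP3 and HP4 is not given in the sources used here. All lines were grown without feeder cells and with leukemia inhibitory factor, as derivatives of the E14tg2a line. Each line is 1 clone, so a difference between clones cannot be told apart from a difference in Rex1 genotype. Nothing in the labels ties an array to a culture of its own. The p-values therefore cover only the scatter of arrays within a line, which may be technical. RNA of each line was in the Cy3 channel, and a universal mouse reference RNA, a pool of cultured lines, was in the Cy5 channel, with no dye swap. Every level below is log2 of Cy3 over Cy5 for 1 probe, and each difference is in the same unit.

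The 3 EB5 arrays were extracted by the scanner software apart from the other 9, and only for EB5 was a global adjustment of the background applied. A difference from EB5 and a difference between these 2 extraction sessions cannot be told apart. Of the gene probes, 92.2 to 94.5% had a Cy3 signal well above background in EB5, 89.3 to 89.9% in RKPG9, 87.1 to 89.4% in HP3 and 85.3 to 86.1% in HP4. All 12 measured ES cell markers, Pou5f1 and Nanog among them, were well above background on every array. Both Zfp42 probes read transcript in every line, with line means between 5.38 and 6.02, but where they lie relative to the replaced stretch is not given, so they do not check the genotypes.

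The lines differ in a DNA-binding zinc finger protein, so the reference sequence before the annotated starts of the Rhox genes is shown for context. The RefSeq table (GRCm38.p6) holds it for Rhox5 and Rhox4b. Both are on the plus strand, at chrX:37754358-37754607 and chrX:37432244-37432493, and span the 250 bases before the start. The dinucleotide CG, the target of DNA methylation, is in capitals.
Rhox5: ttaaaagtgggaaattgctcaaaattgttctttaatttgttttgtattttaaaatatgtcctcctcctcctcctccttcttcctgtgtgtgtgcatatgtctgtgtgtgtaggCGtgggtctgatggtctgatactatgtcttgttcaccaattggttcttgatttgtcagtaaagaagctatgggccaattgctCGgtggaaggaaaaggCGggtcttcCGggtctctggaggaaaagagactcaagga
Rhox4b: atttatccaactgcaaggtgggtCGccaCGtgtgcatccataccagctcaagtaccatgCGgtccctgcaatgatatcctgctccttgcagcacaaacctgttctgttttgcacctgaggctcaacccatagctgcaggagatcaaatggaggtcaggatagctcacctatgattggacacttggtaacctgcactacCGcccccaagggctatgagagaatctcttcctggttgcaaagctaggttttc
Each of the 2 stretches holds 4 CG dinucleotides. Of 32851 promoters of this length, 44.4% hold 4 or fewer, and the median is 6. GC content is 42.8% for Rhox5 and 50.8% for Rhox4b, beside a median of 52.4%. The motif CCATNTT, the core bound by the related protein YY1, was searched on both strands and has no match in either stretch, while 12.4% of all promoters hold one. These are counts of letters in this window alone, and no binding or methylation was measured in these samples.

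Rhox5 was highest in EB5, intermediate in HP3 and lower in RKPG9 and HP4. Its Cy3 signal was still at percentile 94.5 to 94.9 of the gene probes in RKPG9 and 94.0 to 94.2 in HP4. Its level was 2.94 and 2.92 on 2 EB5 arrays, and the third EB5 spot (replicate 2) was marked as an outlier by the scanner software and left out of the fit, where it would have read 2.89. The level was 0.51, 0.51 and 0.56 on the RKPG9 arrays, which lie close together. It was 1.27, 1.28 and 1.33 on the HP3 arrays, all above every RKPG9 array. It was 0.42, 0.38 and 0.41 on the HP4 arrays, all below every RKPG9 array. The EB5 mean was 2.93 ± 0.01 (SD, n = 2). The means were 0.52 ± 0.03 in RKPG9, 1.29 ± 0.03 in HP3 and 0.40 ± 0.02 in HP4 (SD, n = 3 each). No neighbouring pair in the order EB5, HP3, RKPG9, HP4 overlapped, although the gap between the nearest arrays of RKPG9 and HP4 was 0.08, against 0.71 between HP3 and RKPG9 and 1.59 between EB5 and HP3. By comparison, arrays of 2 lines did not overlap for 46.2% of all probes in HP3 against EB5, 39.8% in HP3 against RKPG9 and 51.2% in HP4 against RKPG9. The Rex1+/- line lay between the 2 Rex1-/- lines, close to HP4. The part of Rex1 allele number was not tested and cannot be told apart from the clone.

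**Figure D1:**
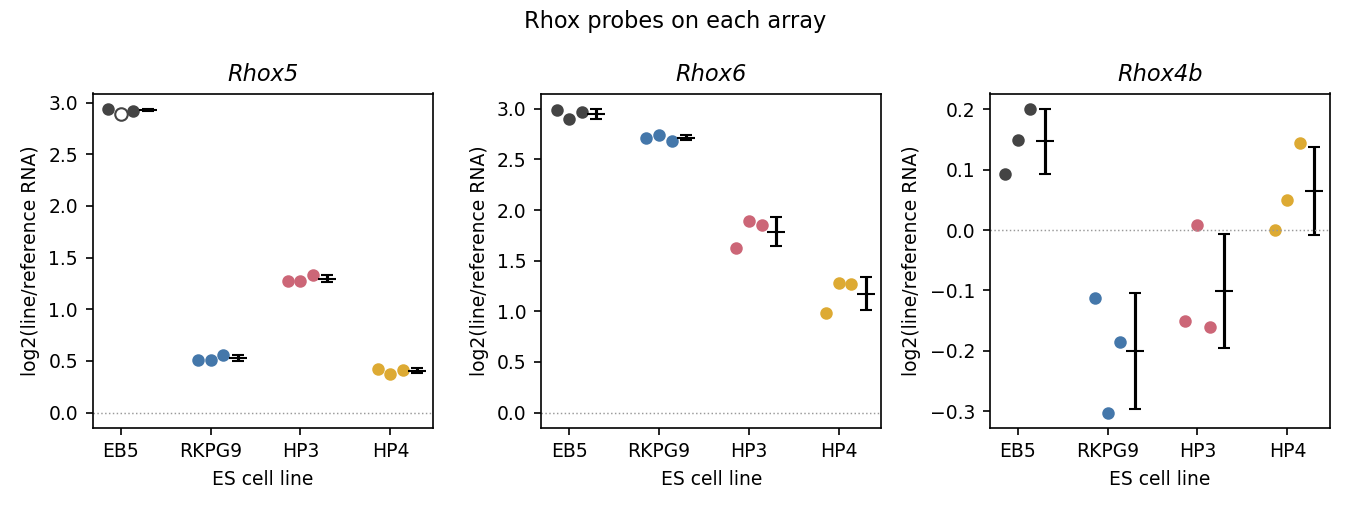
Level of each Rhox probe on each array as log2 of the ES line over the reference RNA, with points for arrays, black bars for the mean ± SD of a line, and an open circle for the EB5 spot of Rhox5 that was left out. The vertical axes differ between panels. The 3 HP3 arrays of Rhox5 sit between 1.27 and 1.33, above all RKPG9 and HP4 arrays, whereas Rhox6 falls from EB5 through RKPG9 and HP3 to HP4.

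Against the Rex1+/- line, the Rex1-/- lines differed in opposite directions for Rhox5. In HP3, Rhox5 was higher than in RKPG9 by 0.77 (standard error 0.03, 1.70-fold, adjusted p = 7.3e-08 in limma). In HP4, it fell by 0.12 (standard error 0.03, 1.09-fold, adjusted p = 0.0129 in limma), with a 95% interval of -0.19 to -0.050. The calls are made at an adjusted p under 0.05 over all probes, and in these comparisons many probes pass. In HP3 against RKPG9, 22.7% of 20273 probes passed, made up of 12.6% that rose and 10.1% that fell, although with median centring 1189 rose and 1877 fell in place of 2560 and 2042. In HP4 against RKPG9, 40.0% of 20278 probes passed, made up of 20.8% that rose and 19.2% that fell. Those are 4226 and 3887 probes, against 7855 and 7695 with median centring and 4069 and 5418 with the scanner software's processed signals. By size, only 67 probes rose more than Rhox5 in HP3, while 4409 probes lay below it in HP4. The HP4 call did not pass without RKPG9 replicate 3 (adjusted p = 0.0527 in limma) or in the Cy3 channel alone (0.0861), and median centring in place of loess gave -0.70. HP4 was lower than HP3 by 0.89 (standard error 0.03), which is given as a description because Rhox5 was chosen with this kind of difference known.

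The Rex1+/- line also differed from wild type. Rhox5 was 5.30-fold lower in RKPG9 than in EB5, a difference of -2.40 (standard error 0.04, adjusted p = 5.5e-11 in limma), and only 2 of 20240 probes lay further down. In this comparison, 34.1% of probes passed, 12.6% as higher and 21.6% as lower, and 0.371% fell by more than 2-fold. The differences of HP3 and HP4 from EB5, -1.64 and -2.53, were among the values with which Rhox5 was chosen and are given as a description only. The comparisons with RKPG9 share the arrays of HP3, HP4 and EB5 with those, so they are not independent of the choice. After subtraction of the local background, the Cy3 signal of the Rhox5 spot was 7786 to 11614 in EB5, against 1746 to 1863 in RKPG9. It was 2145 to 3001 in HP3 and 618 to 788 in HP4. The Cy5 signal of the reference RNA at the same spot was 3449 to 3734 in EB5 and between 2565 and 3501 in the other lines. The spot was well above background in both channels on every array and was not saturated.

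**Figure D2:**
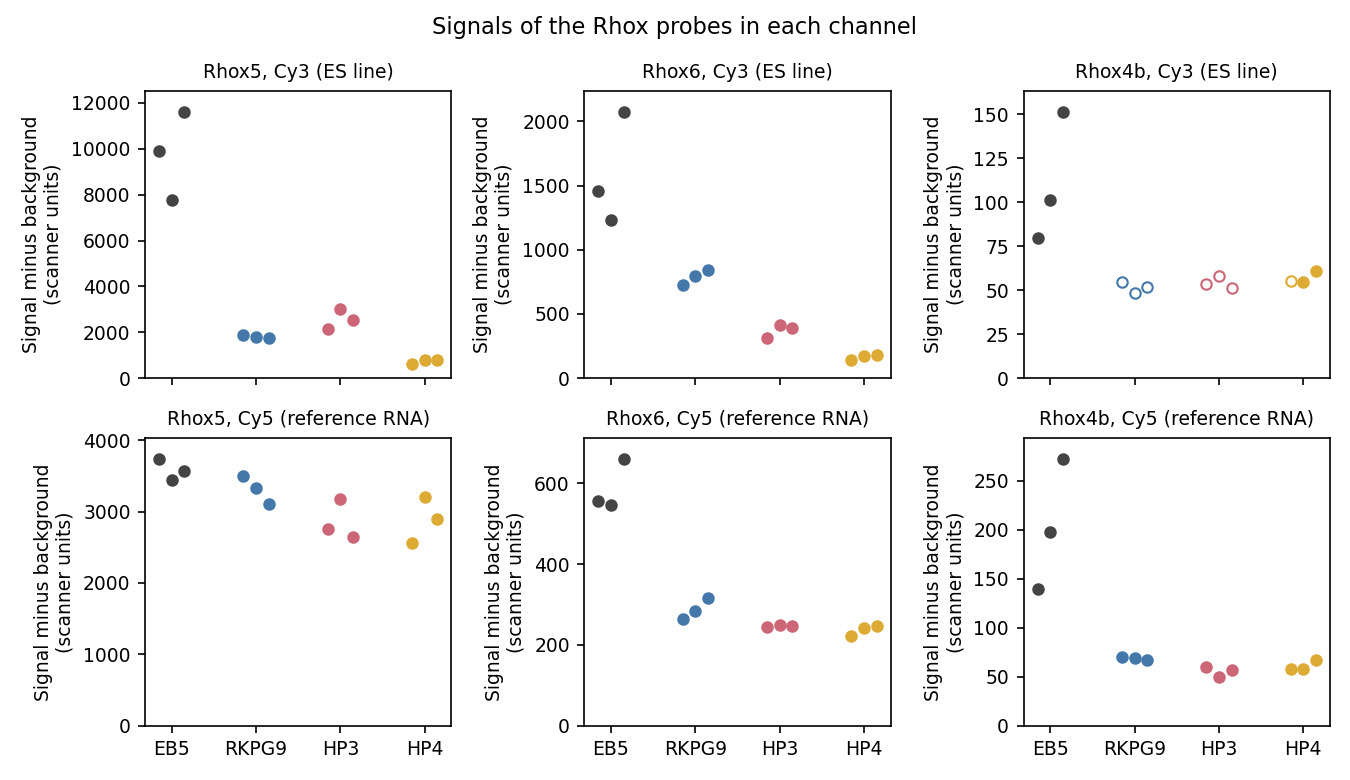
Spot signal minus local background, in scanner units from 0, for the ES line (Cy3, upper row) and the reference RNA (Cy5, lower row) at each Rhox probe, with 1 point per array and open points where Cy3 was not well above background. The reference RNA is the same in all lines, yet for Rhox6 its signal is 548 to 660 in EB5 and 223 to 316 in the others.

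Rhox6 followed another order, falling from EB5 through RKPG9 and HP3 to HP4. The EB5 arrays read 2.99, 2.90 and 2.97, and the RKPG9 arrays 2.71, 2.74 and 2.69. The wild-type and Rex1+/- lines thus lay close in the ratio to the reference RNA. The HP3 arrays read 1.62, 1.89 and 1.85, and the HP4 arrays 0.99, 1.28 and 1.27. All arrays of both Rex1-/- lines were below all RKPG9 arrays, and those of HP4 were below those of HP3. The means were 2.95 ± 0.05, 2.71 ± 0.03, 1.79 ± 0.14 and 1.18 ± 0.17 in the order EB5, RKPG9, HP3, HP4 (SD, n = 3 each), and no neighbouring pair overlapped. Arrays did not overlap for 49.3% of all probes in RKPG9 against EB5 and 42.9% in HP4 against HP3. The gap between the nearest arrays was 0.16 for EB5 and RKPG9, 0.80 for RKPG9 and HP3 and 0.35 for HP3 and HP4.

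Rhox6 fell against RKPG9 in both Rex1-/- lines. The difference was -0.93 in HP3 (standard error 0.08, 1.90-fold, adjusted p = 6.1e-06 in limma) and -1.54 in HP4 (standard error 0.08, 2.90-fold, adjusted p = 8.2e-08 in limma). In HP3 only 37 probes fell further, and in HP4 only 8. Of all probes, 10.1% passed as lower in HP3 against RKPG9 and 19.2% in HP4, and 0.242% fell by more than 2-fold in HP4. Under the alternatives tried, HP4 against RKPG9 stayed between -1.59 and -1.18 and HP3 against RKPG9 between -0.98 and -0.76, all past the threshold. HP4 against HP3 was -0.61 (standard error 0.08), given without a test. RKPG9 against EB5 gave -0.24 (standard error 0.08, adjusted p = 0.0411 in limma). That call was lost in 6 of 12 fits without 1 array, and the difference was -0.014 with the scanner software's processed signals. Beside it, the reference RNA at this spot read 548 to 660 in EB5 and 264 to 316 in RKPG9. This is a shift of the common reference between the sessions, and its part in the difference was not tested. After subtraction of the local background, the Cy3 signal of the Rhox6 spot was 1234 to 2074 in EB5 and 728 to 841 in RKPG9.

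**Figure D3:**
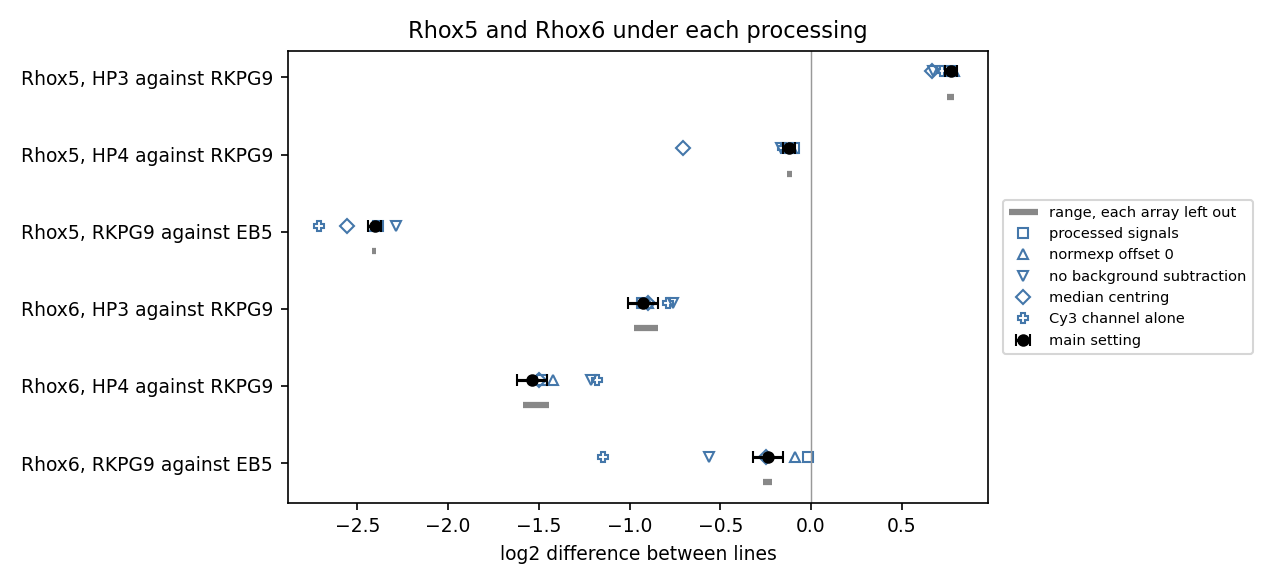
Log2 difference between lines for Rhox5 and Rhox6, with the main setting as a black point with its standard error, other processing as blue open symbols and the range over fits without 1 array as grey bars. Rhox5 in HP3 lies right of 0 and Rhox6 in HP3 and HP4 left of 0 under every setting drawn, while Rhox6 in RKPG9 against EB5 spans -1.15 to -0.014.

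Rhox4b was dim. Cy3 was well above background on 3 of 3 EB5 arrays, on 0 of 3 RKPG9 and 0 of 3 HP3 arrays, and on 2 of 3 HP4 arrays, so RKPG9 and HP3 have only an upper bound and no fold between lines is given. The EB5 arrays read 0.092, 0.15 and 0.20, and the RKPG9 arrays -0.11, -0.30 and -0.19. The HP3 arrays read -0.15, 0.0077 and -0.16, and the HP4 arrays 0.00085, 0.050 and 0.14. Each neighbouring pair in the order EB5, HP4, HP3, RKPG9 overlapped. After subtraction of the local background, the Cy3 signal was 79.5 to 151 in EB5, 48.3 to 54.4 in RKPG9, 51.1 to 58.1 in HP3 and 54.4 to 60.8 in HP4, and the reference RNA at the same spot read 140 to 272 in EB5 and 50.2 to 69.7 in the other lines. With the spots of RKPG9 and HP3 at background, differences of the ratio from these lines are not read as changes of Rhox4b.

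Rhox5 and Rhox6 did not move together in the 9 arrays read in one session. Pearson's r between them was 0.0072 over those arrays and 0.54 over the 11 arrays on which both were usable, as a description, since arrays form 4 lines and share one reference RNA. The 5 named genes whose pattern over the arrays was most like that of Rhox5 were Adprh (r = 0.998), Hmgn5 (0.989), a hypothetical protein with a phosphotyrosine interaction domain named PID (0.989), Ykt6 (0.984) and Aff1 (0.984). Each r is over the 11 arrays with a usable Rhox5 spot, except that of Aff1, which is over 10, and they were taken from 6994 genes. Adprh removes ADP-ribose from arginine, Hmgn5 is a nucleosome-binding protein, Ykt6 is a SNARE protein and Aff1 belongs to the super elongation complex. Over the 9 arrays without EB5, r was 0.99 for Adprh, 0.94 for Hmgn5, 0.95 for PID, 0.90 for Ykt6 and 0.95 for Aff1. In HP3 against RKPG9 their differences were smaller than that of Rhox5, from 0.064 (Ykt6) to 0.30 (Aff1), while in HP4 against RKPG9 that of PID (-0.16) was larger in size than that of Rhox5 (-0.12). The second probes of Hmgn5 and PID gave 0.10 and -0.0070 in HP3 against RKPG9, and neither passed.

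The genes that neighbour the Rhox cluster differed by less than Rhox5 in HP3 against RKPG9 and by less than Rhox6 in both comparisons, whereas Rhox5 in HP4 (-0.12) lay within their range. Of 67 entries of the gene table within 1 Mb of either end, 10 had a probe, and all 10 were well above background on every array. In HP3 against RKPG9, 1 of the 10 rose and 3 fell, with a median of 0.027, and in HP4 against RKPG9, 3 rose and 3 fell, with a median of -0.025. With median centring, 0 rose and 9 fell in HP4, with a median of -0.39, where 7855 of all 20278 probes rose and 7695 fell. In the main setting, 18.0% of all named genes rose and 15.8% fell in HP3, and 27.0% rose and 24.5% fell in HP4. Each gene was judged by its brightest probe. On the side nearer Rhox4b, Pgrmc1, a haem-binding membrane protein, fell in both lines, with differences of -0.31 in HP3 and -0.40 in HP4. Nkrf, a repressor of NF-kappa-B targets, also fell (-0.28 and -0.27), as did Ube2a, a ubiquitin-conjugating enzyme (-0.095 and -0.17). The other Ube2a probe passed in neither line (-0.11 and -0.063). Slc25a5, a mitochondrial ADP/ATP carrier, gave 0.050 in HP3 and rose by 0.14 in HP4, a rise that turned to -0.64 with median centring. The other Slc25a5 probe gave -0.10 in HP4 and did not pass. Rpl39, Upf3b and Nkap passed in neither line, with differences between -0.16 and 0.11. On the side nearer Rhox6, Cul4b, a ubiquitin ligase scaffold, rose by 0.18 in HP3 and by 0.20 in HP4, the second of which turned to -0.36 with median centring. The other Cul4b probe rose by 0.36 in HP3 and by 0.27 in HP4. C1galt1c1, the chaperone of a glycosyltransferase, gave 0.19 in HP3 and rose by 0.27 in HP4, which turned to -0.021 with median centring. Lamp2, a lysosomal membrane protein, gave 0.15 and 0.024 at its brightest probe. Its other probe gave 0.10 in HP3 and a called rise of 0.18 in HP4. Over 236 measured genes of chromosome X, 13.6% rose and 16.9% fell in HP3, and 24.6% rose and 27.5% fell in HP4.

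**Figure D4:**
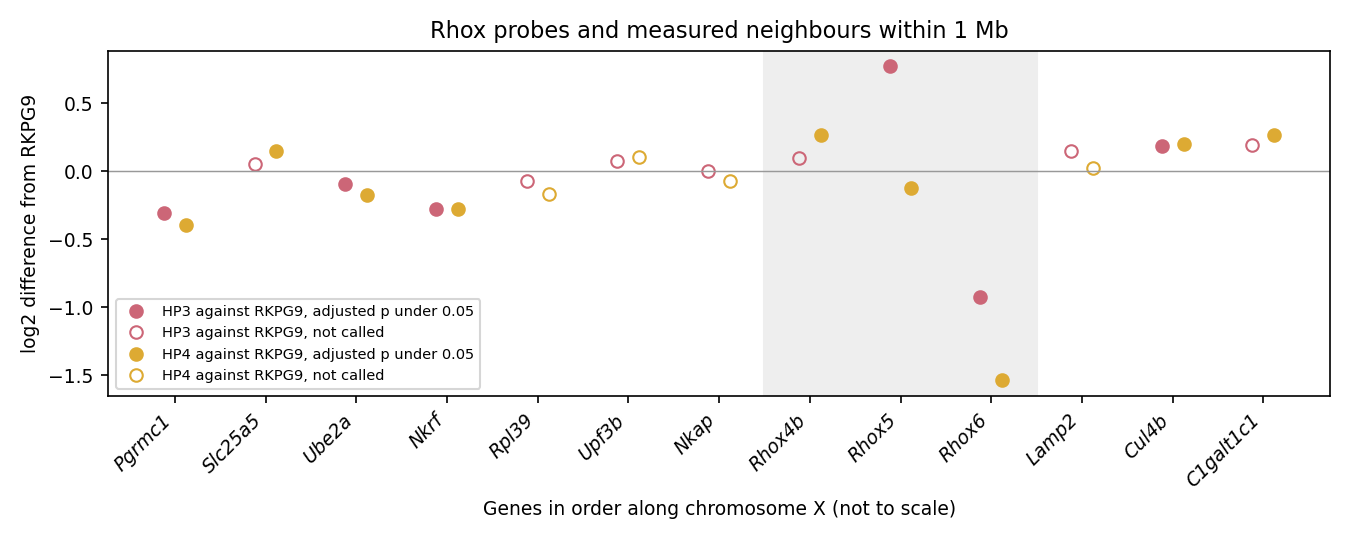
Log2 difference from RKPG9 for HP3 and HP4 at the 3 Rhox probes (grey band) and the 10 measured neighbours within 1 Mb, in their order along the X chromosome and not to scale, with filled points where the adjusted p was under 0.05. At their brightest probes the neighbours lie between -0.40 and 0.27, while Rhox5 in HP3 is at 0.77 and Rhox6 in HP4 at -1.54.

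DNA methylation silences Rhox5 in embryonic tissues as background, and 2 lists of related genes were therefore examined. Of 15 measured germline genes that are known to be methylated in somatic cells, 7 rose and 0 fell in HP3 against RKPG9 (median 0.27), where 18.0% of all named genes rose, and 3 rose and 1 fell in HP4 (median 0.11). Tex19.1, a germ cell gene, rose by 0.67 in HP3 and by 0.64 in HP4. Dazl, an RNA-binding protein of germ cells, rose by 0.65 and by 0.33, and Hormad1, a meiotic chromosome protein, rose by 0.49 and by 0.36. Taf7l, a germ cell form of a TFIID subunit, gave 0.0011 in HP3 and -0.13 in HP4 at its brightest probe, the latter a called fall, while its other probe rose by 0.51 and by 0.57. With processed signals 4 of these 15 genes rose and 3 fell in HP4. RKPG9 was itself below EB5 for this list, with 0 higher and 9 lower (median -0.21), beside 997 and 2504 of all 7108 named genes. Against EB5, 4 were higher and 2 lower in HP3 (median -0.035), and 0 and 7 in HP4 (median -0.12). Tex19.1 differed from EB5 by 0.020 in HP3 and -0.015 in HP4, neither called. Dazl (0.29) and Hormad1 (0.28) were higher than EB5 in HP3 and not called in HP4 (-0.036 and 0.15). Of 23 DNA methylation and silencing factors, 6 rose and 3 fell in HP3, beside 18.0% and 15.8% of all named genes, and 7 rose and 7 fell in HP4, beside 27.0% and 24.5%. With median centring, 2 rose and 5 fell in HP3, and 2 rose and 19 fell in HP4 (median -0.46). In that setting, 1189 of 20273 probes rose and 1877 fell in HP3, and 7855 of 20278 rose and 7695 fell in HP4. Dnmt3b, a de novo DNA methyltransferase, rose by 1.09 in HP3 and by 1.10 in HP4, and its other probe rose by 1.12 and by 1.13. At its brightest probe RKPG9 was itself lower than EB5 (-0.73), and HP3 and HP4 differed from EB5 by 0.37 and 0.38. Dnmt3a, the other de novo enzyme, rose by 0.36 in HP3 and by 0.32 in HP4 at its brightest of 4 probes, although with median centring it gave -0.11 in HP4. Its other probes gave 0.36, 0.46 and 0.25 in HP3 and 0.33, 0.39 and 0.19 in HP4. The last of these probes passed in neither line. At the brightest probe RKPG9 was lower than EB5 (-0.31), and HP3 and HP4 differed from EB5 by 0.051 and 0.014, neither called. Suv39h1, a histone H3 methyltransferase, fell at its brightest probe, with differences of -0.56 in HP3, which was 0.014 with processed signals, and -1.37 in HP4, but its other probe rose by 0.21 and by 0.20. Mga, a repressor subunit of germline genes, fell at its brightest probe (-0.15 and -0.48), and neither of its other 2 probes passed.

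Placental and ES cell genes are the other settings in which Rhox genes are known. Of 12 measured trophoblast markers, 0 rose and 1 fell in HP3 against RKPG9 and 4 rose and 1 fell in HP4, with medians of -0.025 and -0.027, beside 18.0% and 15.8% of all named genes in HP3 and 27.0% and 24.5% in HP4. In HP4, 2 rose and 4 fell with processed signals or the authors' table, 3 and 4 with an offset of 0, and 4 and 4 with median centring. Of all 20278 probes, 7855 rose and 7695 fell in HP4 with median centring, and 4069 and 5418 with processed signals. Tfap2c, a trophoblast and germ cell transcription factor, gave -0.17 in HP3 and -1.11 in HP4, the largest fall of the list. Gata3, a trophoblast transcription factor, fell by 0.23 in HP3 and rose by 0.48 in HP4. The keratins Krt18 and Krt7 rose by 0.42 and by 0.19 in HP4 against RKPG9, and with median centring both turned, to -0.016 and -0.17. Both lay below EB5 in every other line. Krt18 differed from EB5 by -2.52 in RKPG9, -2.60 in HP3 and -2.10 in HP4. Krt7 differed from EB5 by -1.20, -1.25 and -1.01 in the same order. Tpbpa was well above background on no array, Eomes on none in HP3 or HP4, and Hand1 on none in HP4. Of 12 ES cell markers, 2 rose and 3 fell in HP3 (median -0.065), and 1 rose and 9 fell in HP4 (median -0.35), where 24.5% of all named genes fell. The 12 include Zfp42, the targeted gene, which is also among the 9 falls (-0.58 at its brightest probe). In HP4 against RKPG9, Klf5 (-0.76), Tcl1 (-0.76), Fbxo15 (-0.61) and the brightest probe of Esrrb (-0.67) fell, all genes of the self-renewing state. The other Esrrb probe gave 0.10 in HP4 and did not pass. In HP3, Klf5 (-0.22) and Tcl1 (-0.41) fell. RKPG9 was itself above EB5 for part of this list, with 5 higher and 1 lower (median 0.27). Against EB5, 3 were higher and 4 lower in HP4 (median -0.14), and 4 and 0 in HP3 (median 0.22). Of all 7108 named genes, 1193 were higher and 2685 lower in HP4 against EB5. Tcl1 was higher in HP4 than in EB5 (0.49), and Klf5 (-0.46) and Fbxo15 (-0.37) were lower. The brightest probe of Esrrb (-0.20) was not called. The falls in HP4 against RKPG9 were in the line in which Rhox6 fell most, and their part in the Rhox6 difference was not tested. In bulk RNA, fewer cells that express a gene and less RNA per cell cannot be told apart.

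Among 26 homeobox genes outside the cluster, 9 rose and 1 fell in HP3 and 12 rose and 4 fell in HP4, with medians of 0.072 and 0.10. In the main setting, 18.0% of all named genes rose and 15.8% fell in HP3, and 27.0% and 24.5% in HP4. These are also the shares for the lists that follow. With median centring, 7855 of 20278 probes rose and 7695 fell in HP4. Zfhx3 (0.82), Pou3f1 (0.61) and Zeb2 (0.59) were among those that rose in HP4, whereas Rhox6 fell by 1.54. In HP3 the same genes gave 0.52, 0.52 and 0.15, of which the last did not pass. Of 6 germ cell markers, 4 rose and 0 fell in HP3 and 1 rose and 1 fell in HP4, where Dppa3, a maternal and germ cell gene, fell by 0.85. Of 15 primitive endoderm markers, 2 rose and 4 fell in HP3 and 5 rose and 4 fell in HP4, where 4 rose and 7 fell with processed signals and 8 and 4 with median centring. Of 5 fibroblast and mesenchyme markers, 2 rose and 0 fell in HP3 and 4 rose and 0 fell in HP4, but 1 rose and 2 fell in HP4 with median centring (median -0.094) and 2 and 1 in Cy3 alone (median -0.17). Their median level over arrays lay between -3.04 and -2.32 in all lines. Unc5c and Ins2, genes that have been reported as Rhox5 targets, had no probe by name.

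**Figure D5:**
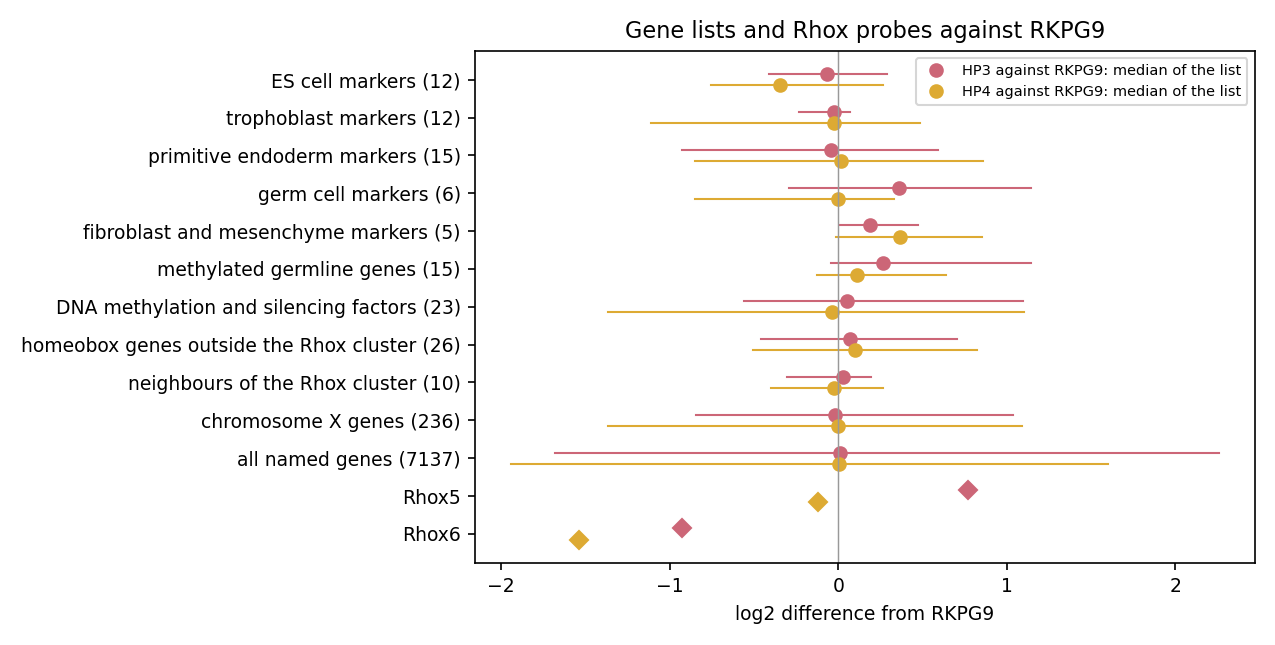
Log2 difference from RKPG9 for each gene list, with a point at the median and a line from the lowest to the highest gene (number of measured genes in brackets), and diamonds for Rhox5 and Rhox6. List medians lie between -0.35 and 0.37, and Rhox6 in HP4 (-1.54) lies below the lowest gene of every fixed list.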

How the data were processed

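Gene expression was measured on 12 Agilent NIA Mouse 22K arrays. The deposited scanner files (Agilent Feature Extraction 7.5.1, per the file headers) hold a spot intensity and local background in each channel. The authors also deposited a log10 table, which equals minus the log ratio of the scanner files plus a level for each probe (within 0.01 for 93.8 to 95.9% of probes) and served as an alternative. Here mean intensities were background-corrected with normexp (offset 50) and loess-normalized within each array in limma 3.58.1 (R 4.3.3). Control spots and flagged outliers were left out, and spots of 1 probe were averaged. Values are log2 of Cy3 over Cy5, so that a change is relative to the reference RNA. The 4 lines were fitted together with lmFit and eBayes, with Benjamini-Hochberg adjustment over all 20280 probes and a threshold of 0.05. The fit was tested on simulated data. Names were updated through the RefSeq gene table (GRCm38.p6): 4326 probes kept a current symbol, 4126 and 5 were updated by name or accession, 741 kept the file's name, and 11082 had none. The brightest probe by mean intensity stood for a gene. Lists are described by counts and medians, with no set test.

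The members, lists and tests were chosen with earlier results of these data known. Genes were named by rule: every Rhox probe, up to 4 genes of a list with the largest called difference in HP4 against RKPG9, every measured neighbour, the 5 genes most correlated with Rhox5, and Zfp42. A gene that this rule picks from the homeobox list is not reported here. Alternatives changed the background correction or normalization, used Cy3 only or the deposited table, kept outliers, dropped dim probes, fitted fewer lines, added a replicate block or omitted 1 array. The number of arrays limits the precision. Replicate numbers in the labels do not name a shared culture or day.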

Additional observations from a re-analysis of the deposited data

Results flagged for a closer look

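Rhox5 lay on opposite sides of RKPG9 in the 2 Rex1-/- lines: every HP3 array was above the RKPG9 mean and every HP4 array below it, with a difference of -0.89 between HP4 and HP3 made up of 0.77 in HP3 and -0.12 in HP4. Among the other genes named, Gata3 did the reverse, with a difference of 0.72 made up of -0.23 in HP3 and 0.48 in HP4. The brightest probe of the hypothetical protein PID followed Rhox5, with a difference of -0.44 made up of 0.28 and -0.16. These 3 differences between the lines were picked out by direction and are given without a test, since each gene had been chosen by related differences, and the comparisons share the RKPG9 arrays.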

How the results depend on the processing

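Rhox5 in HP3 against RKPG9 and in RKPG9 against EB5, and Rhox6 in both Rex1-/- lines against RKPG9, kept their direction and their side of the threshold under every alternative run. Rhox5 in HP4 against RKPG9 was -0.15 and not called in the Cy3 channel alone. Rhox6 in RKPG9 against EB5 was not called with processed signals or the authors' table (-0.014 each) or with an offset of 0 (-0.091). Rhox4b, whose RKPG9 spots lie at background, gave a difference in HP4 against RKPG9 that was not called without background subtraction (0.042) or in the Cy3 channel alone (0.25), and in RKPG9 against EB5 it turned to 0.093 with median centring.

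The differences given without a test moved by more than the spread between arrays as follows. For Rhox5, HP4 against HP3 was -0.84 without background subtraction and -1.37 with median centring, HP3 against EB5 was -1.89 with median centring and -1.99 in Cy3 alone, and HP4 against EB5 was -2.45 without background subtraction, -2.47 with the authors' table, -2.49 with processed signals, -2.86 in Cy3 alone and -3.26 with median centring. For Rhox6, HP4 against HP3 was -0.39 in Cy3 alone, HP3 against EB5 was -0.95 with processed signals and the authors' table, -0.99 with an offset of 0, -1.32 without background subtraction and -1.93 in Cy3 alone, and HP4 against EB5 was -1.50 with processed signals and the authors' table, -1.51 with an offset of 0 and -2.32 in Cy3 alone.

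Without 1 array each, Rhox5 ranged from 0.75 to 0.79 in HP3 against RKPG9, -0.13 to -0.10 in HP4 against RKPG9, -2.42 to -2.40 in RKPG9 against EB5, -0.90 to -0.87 in HP4 against HP3, -1.66 to -1.62 in HP3 against EB5 and -2.54 to -2.51 in HP4 against EB5. Rhox6 ranged from -0.98 to -0.84, -1.59 to -1.44, -0.27 to -0.22, -0.69 to -0.52, -1.21 to -1.08 and -1.82 to -1.68 in the same order. Rhox4b ranged from 0.044 to 0.14, 0.21 to 0.31 and -0.39 to -0.30 in the first 3.

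The fixed lists together held 44 called genes in HP3 against RKPG9 (35 to 50 without 1 array) and 66 in HP4 (58 to 66), and every alternative stayed within 1.5 times these. Of the list calls, 38 were rises and 28 falls in HP4, but 29 and 36 with processed signals, 28 and 35 with the authors' table, 28 and 31 with an offset of 0, and 35 and 55 with median centring; in HP3, 29 rises and 15 falls became 17 and 16 with median centring.

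Named genes turned sign as follows. In HP4 against RKPG9, median centring gave -0.14 for Acta2, -0.49 for Aff1, -0.021 for C1galt1c1, -0.094 for Col1a2, -0.36 for Cul4b, -0.11 for Dnmt3a, -0.016 for Krt18, -0.17 for Krt7, -0.42 for Lamp2, -0.64 for Slc25a5 and -0.20 for Upf3b. Cy3 alone gave -0.074 for C1galt1c1, -0.20 for Col1a2, -0.17 for Pdgfrb and -0.028 for Slc25a5. Col1a2 was -0.026 with processed signals and the authors' table and -0.013 with an offset of 0, and Hmgn5 was 0.25 without background subtraction. In HP3 against RKPG9, Pdgfra was -0.023 in Cy3 alone and Suv39h1 was 0.014 with processed signals and the authors' table. The causes were not tested.

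Same-numbered arrays of different lines had correlations of their deviations from -0.18 to 0.20 (median 0.064), with 4 of 18 pairs over 0.1. Arrays with different numbers had correlations from -0.26 to 0.19 (median -0.014), with 3 of 36 pairs over 0.1. Whether the numbers pair arrays is not settled by these values. With the replicate number as a block, Rhox5 in HP4 against RKPG9 stayed at -0.12 (adjusted p = 0.0187 in limma), and no Rhox call changed. Dim spots limit Rhox4b.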
